A study of Schizosaccharomyces pombe with 2 samples.

Results

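The Rpl16 family of fission yeast, Schizosaccharomyces pombe, consists of 3 genes that encode the large ribosomal subunit protein uL13: rpl1601 (SPBC839.13c), rpl1602 (SPAC23A1.11) and rpl1603 (SPBC2G2.05). The copies were taken by their systematic names, and all 3 were found among the 1144 genes of both libraries. The family was chosen by its unspliced shares and exonic levels in these 2 libraries, so the differences between copies are given as a description without a test. The tests given compare replicate 1 with replicate 2 across all genes. Transcripts were counted by MPE-seq (multiplexed primer extension sequencing), where pooled gene-specific primers near introns start reverse transcription, so that reads fall on splice junctions and introns. There was 1 group, a Bioneer wild-type strain in log phase, started from a single colony and grown in the rich medium YES at 30 °C to an OD600 of 0.8. Its 2 libraries, lettered A and B by the submitters, are called replicate 1 and replicate 2. Separate cultures are not stated, so the spread between replicates, and any p-value that rests on it, may be technical.

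The protein uL13 is a core component of the large subunit, and its mammalian counterpart is called RPL13A. Yeast ribosomal protein genes are often present in several copies that are transcribed at different levels. Removal of an intron depends on a 5′ splice site that pairs with the U1 and U6 small nuclear RNAs, a branch point sequence near the 3′ end, and a terminal AG. Fission yeast introns are mostly short and rich in A and T.

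Each copy has a single intron, and in all 3 it interrupts the coding sequence after the same number of bases, 41 from the start of translation. The RefSeq annotation of assembly ASM294v3 places the introns at chrII:623953-623998 on the minus strand (rpl1601), chrI:4097375-4097429 on the plus strand (rpl1602) and chrII:3443308-3443365 on the plus strand (rpl1603). The deposited counts name no build and do not give intron positions, so each value was tied to its annotated intron by the gene's name. The introns are printed whole because, going by the class names, premature reads hold intron bases and mature reads do not. Capitals mark the first 6 bases, the last match to the branch point pattern CTNAN and the final 3 bases.
rpl1601: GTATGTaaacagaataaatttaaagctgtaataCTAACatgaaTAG
rpl1602: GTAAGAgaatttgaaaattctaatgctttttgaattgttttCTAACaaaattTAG
rpl1603: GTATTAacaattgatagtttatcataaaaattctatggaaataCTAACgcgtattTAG

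The introns ended alike and began differently. All 3 ended in TAG, as did 833 (77.3%) of the 1078 genes in the files with a single RefSeq intron. In all 3 the last branch point match was CTAAC, which was so in 450 (41.7%) of those genes. From the A of that match to the last base of the intron there were 9 nt in rpl1601, 10 nt in rpl1602 and 11 nt in rpl1603, against a median of 11 nt over the 767 measured genes with a match. At the 5′ end, rpl1601 began with GTATGT, found in 258 genes (23.9%), and rpl1602 with GTAAGA, found in 68 (6.31%). The rpl1603 intron began with GTATTA, found in 3 genes (0.278%), and no other ribosomal protein gene counted in these libraries had it. The most frequent start, GTAAGT in 381 genes (35.3%), was in none of the copies.

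The introns were also short for ribosomal protein genes. They measured 46 nt in rpl1601, 55 nt in rpl1602 and 58 nt in rpl1603. The median was 95 nt over the introns of the 65 ribosomal protein genes counted in these libraries. Over all 838 measured single introns the median was 71.5 nt, with quartiles of 53 and 143 nt. The introns of rpl1602 and rpl1603 lay between these quartiles and that of rpl1601 below them. Their GC content was 23.9%, 21.8% and 24.1% in that order, and the median ribosomal protein intron had 29.9%.

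Outside the introns the copies were similar but not the same. Over 594 coding bases, rpl1601 and rpl1602 were identical at 83.2% of positions, rpl1601 and rpl1603 at 72.1%, and rpl1602 and rpl1603 at 71.5%. The encoded proteins of 197 residues were identical at 96.4%, 84.8% and 86.3% of positions in the same order. The stretch around the splice junction is printed because mature reads, taken by their name as spliced, would cross it. It joins the 41 coding bases of exon 1 to the next 41 of exon 2, with capitals at the 28 positions where the 3 copies did not all agree.
rpl1601: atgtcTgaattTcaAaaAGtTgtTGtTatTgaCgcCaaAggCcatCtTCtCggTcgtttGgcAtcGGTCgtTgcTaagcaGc
rpl1602: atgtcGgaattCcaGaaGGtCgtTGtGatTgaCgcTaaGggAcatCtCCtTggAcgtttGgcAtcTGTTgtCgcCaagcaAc
rpl1603: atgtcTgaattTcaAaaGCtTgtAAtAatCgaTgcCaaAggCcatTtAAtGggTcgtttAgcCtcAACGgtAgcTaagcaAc

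No stretch of 50 nt was shared by any pair of the annotated mRNAs. The longest identical run was 26 nt, between rpl1601 and rpl1602, then 18 nt between rpl1601 and rpl1603 and 14 nt between rpl1602 and rpl1603. The read length is not given in the sources used here.

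**Figure D1:**
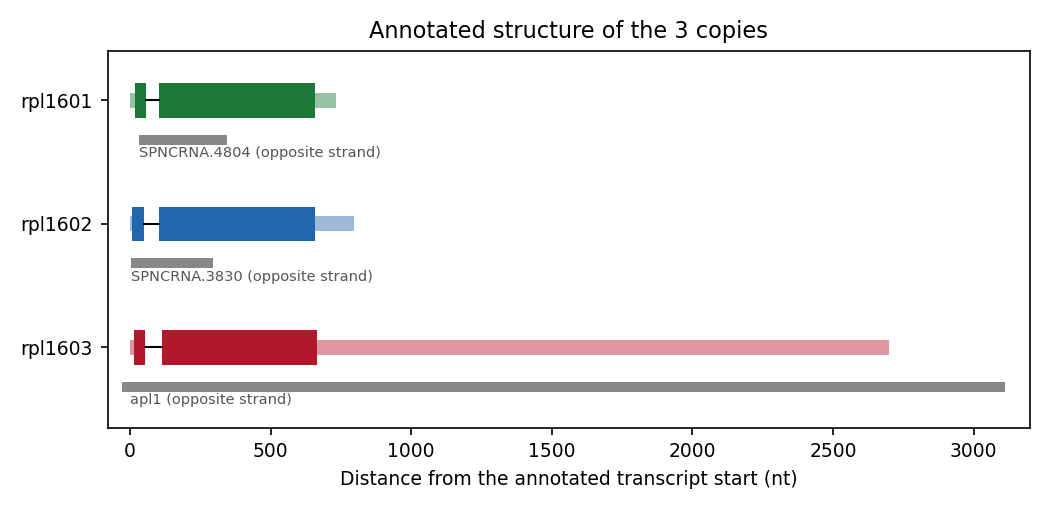
Annotated structure of rpl1601, rpl1602 and rpl1603 to scale, with the distance from the annotated transcript start in nt on the x axis. Thick boxes are coding sequence, thin boxes untranslated regions, black lines introns, and grey bars annotated genes on the opposite strand; the intron lies near the start in every copy, and the 3′ untranslated region of rpl1603 is 2033 nt long.

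The annotation differs most outside the coding sequence. The 3′ untranslated region is 77 nt in rpl1601, 141 nt in rpl1602 and 2033 nt in rpl1603. A gene on the opposite strand lies over every one of the 3 introns: the non-coding RNA genes SPNCRNA.4804 over rpl1601 and SPNCRNA.3830 over rpl1602, and the protein-coding gene apl1 over the whole of rpl1603. An opposite-strand gene lies over the intron in 59.1% of the 1078 single-intron genes. The strand setting of the counting is not given in the sources used here, and none of these 3 opposite-strand genes has a row in the files, so their part in the counts was not tested.

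The copies were present at different levels. Exonic counts of rpl1602 were 29486 in replicate 1 and 56343 in replicate 2, those of rpl1601 were 14361 and 25647, and those of rpl1603 were 5462 and 8441. The libraries held 5796068 and 10009017 exonic counts in all. Scaled to these totals, the exonic level was 5358 ± 383 counts per 1000000 (CPM, SD, n = 2) for rpl1602, 2520 ± 59.9 for rpl1601 and 893 ± 70.0 for rpl1603. The coding length is 594 bases in every copy, so per kilobase of coding sequence the order and the ratios are equal to these, at 9021, 4243 and 1503 CPM. Each gene has primers of its own in this assay, and differences in priming between copies were not measured.

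In both libraries rpl1602 was highest, rpl1601 intermediate and rpl1603 lowest, and the values of no pair of copies overlapped. The exonic level of rpl1601 was 0.487 times that of rpl1602 in replicate 1 and 0.455 times in replicate 2. That of rpl1602 was 5.40 and 6.67 times as high as that of rpl1603. Among the 65 ribosomal protein genes counted in these libraries, the median was 4943 exonic CPM. From the lowest, rpl1602 ranked 43rd, rpl1601 13th and rpl1603 3rd.

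The unspliced share ran in the opposite order. It is the percentage of premature counts among a gene's mature and premature counts together, the premature class being read as unspliced from its name. For rpl1602 there were 5 premature and 5445 mature counts in replicate 1, and 9 and 11194 in replicate 2. This is an unspliced share of 0.0917% (95% Wilson interval 0.0392 to 0.215) in replicate 1 and 0.0803% (0.0423 to 0.153) in replicate 2. These intervals, like all others given, cover counting error only, and without molecular identifiers, whose use is not stated, amplified reads are not independent molecules. For rpl1601 there were 13 premature and 3020 mature counts in replicate 1, and 14 and 5927 in replicate 2. Its share was 0.429% (0.251 to 0.732) and 0.236% (0.140 to 0.395). For rpl1603 there were 43 premature and 712 mature counts in replicate 1, and 88 and 1089 in replicate 2. Its share was 5.70% (4.26 to 7.58) and 7.48% (6.11 to 9.12).

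The mean unspliced share was therefore 0.0860% ± 0.00807 (SD, n = 2) for rpl1602, 0.332% ± 0.136 for rpl1601 and 6.59% ± 1.26 for rpl1603. The share of rpl1603 was 62.1 times that of rpl1602 in replicate 1 and 93.1 times in replicate 2, and 13.3 and 31.7 times that of rpl1601. The interval of rpl1603 lay above those of both other copies in each library. The interval of rpl1601 lay above that of rpl1602 in replicate 1, whereas in replicate 2 the lower limit of rpl1601 was under the upper limit of rpl1602. With so few premature counts in rpl1601 and rpl1602, the size of the step between this pair is poorly fixed, at 4.67 times in replicate 1 and 2.93 times in replicate 2.

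**Figure D2:**
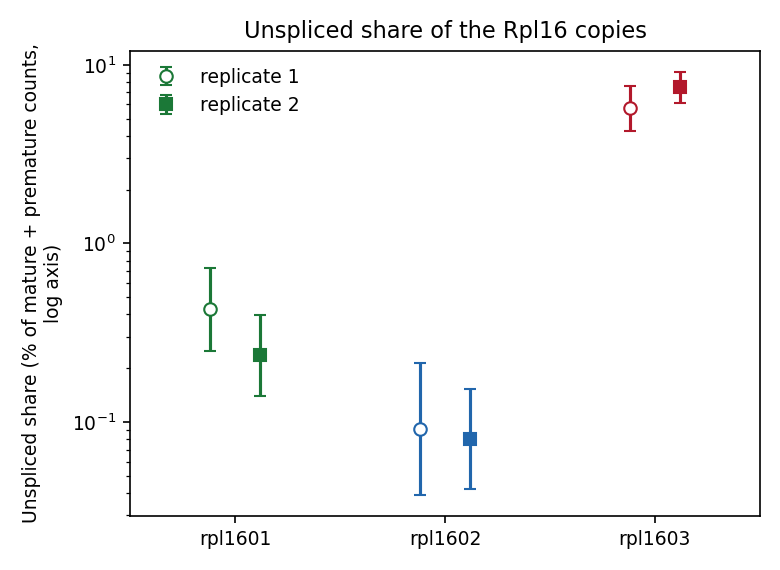
Unspliced share of each copy in percent of mature and premature counts, on a log axis. Open circles are replicate 1, filled squares replicate 2, and bars are 95% Wilson intervals; rpl1603 lies at 5.70% and 7.48%, above every interval of rpl1601 and rpl1602.

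The least abundant copy held most of the family's premature counts. Of the exonic counts of all 3 copies, rpl1603 made up 11.1% in replicate 1 (10.8 to 11.4) and 9.33% in replicate 2 (9.15 to 9.53). Of the 61 premature counts in replicate 1 it made up 70.5% (58.1 to 80.4), and of the 111 in replicate 2 it made up 79.3% (70.8 to 85.8). The most abundant copy, rpl1602, had 59.8% and 62.3% of the exonic counts and 8.20% and 8.11% of the premature counts. Taken as a family, 0.660% of mature and premature counts were unspliced in replicate 1 and 0.606% in replicate 2. Over rpl1601 and rpl1602 alone this was 0.212% and 0.134%.

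**Figure D3:**
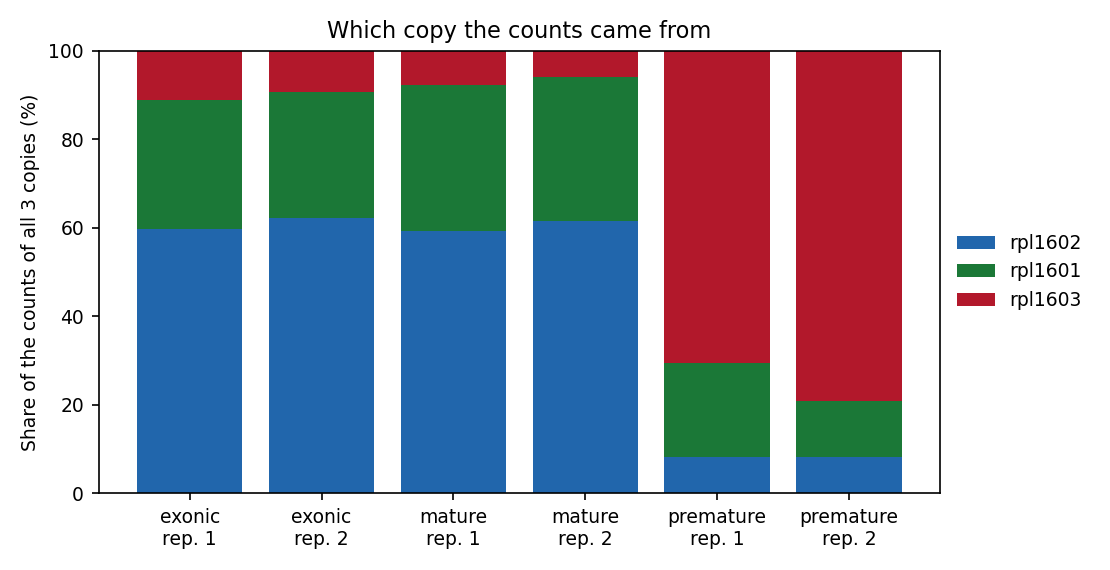
Share of the counts of all 3 copies that came from each copy, in percent, for exonic, mature and premature counts of replicate 1 and replicate 2. The share of rpl1603 is 11.1% and 9.33% of exonic counts and 70.5% and 79.3% of premature counts.

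Set against exonic rather than mature counts, the order of the copies was the same. There were 9.15 ± 1.81 premature counts per 1000 exonic counts for rpl1603 (SD, n = 2), 0.726 ± 0.254 for rpl1601 and 0.165 ± 0.00696 for rpl1602. Mature counts per 1000 exonic counts differed less, at 130 ± 0.949 for rpl1603, 221 ± 14.7 for rpl1601 and 192 ± 9.91 for rpl1602. The lower value of rpl1603 held in both libraries, at 130.4 and 129.0 against a lowest value of 184.7 in the other copies, and the values of rpl1601 (210.3 and 231.1) and rpl1602 (184.7 and 198.7) did not overlap. The median over ribosomal protein genes was 208 mature counts per 1000 exonic counts.

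Among ribosomal protein genes the copies stood near opposite ends. With the lowest mean unspliced share of all 65, rpl1602 was followed by rps001, a small subunit protein gene, at 0.249% ± 0.0712. Of the 65, rpl1601 ranked 6th, between rps2802 at 0.314% ± 0.0433 and rps3001 at 0.340% ± 0.124, and its 2 values overlapped those of both. The 10th highest was rpl1603, between rps502 at 6.44% ± 0.203 and rpl2302 at 6.68% ± 1.47, and its 2 values overlapped those of rpl2302 and enclosed those of rps502. Ranks in single libraries moved: from the highest, rpl1603 was 11th in replicate 1 and 6th in replicate 2, and from the lowest, rpl1601 was 9th and 4th, while rpl1602 was lowest in both. The list had a median of 1.02%, with 32 genes under 1% and 11 above 5%. Its 40 large subunit and stalk members had a median of 1.03% and its 25 small subunit members 0.869%. Over all 864 genes with at least 50 mature and premature counts in each library, the median was 7.63%, and rpl1603 ranked 394th from the lowest, rpl1601 21st and rpl1602 6th. In replicate 1 these ranks were 356, 38 and 20, and in replicate 2 they were 437, 18 and 9.

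The copies were also set beside genes of like abundance. Within 1.5-fold of the exonic level of rpl1602 there were 51 other genes, with a median of 0.971% unspliced, and all of them lay above rpl1602. Around rpl1601 there were 73 genes with a median of 2.73%, and 6 of them lay below it. Around rpl1603 there were 199 genes with a median of 4.45%, and 118 of them lay below it. Only 2 of those 199 were ribosomal protein genes, rpl4102 at 0.810% and rpl1202 at 0.985%, both lower than rpl1603. Across the 65 ribosomal protein genes, which share libraries and depth and are not independent, the Spearman rho of exonic level with unspliced share was -0.07.

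**Figure D4:**
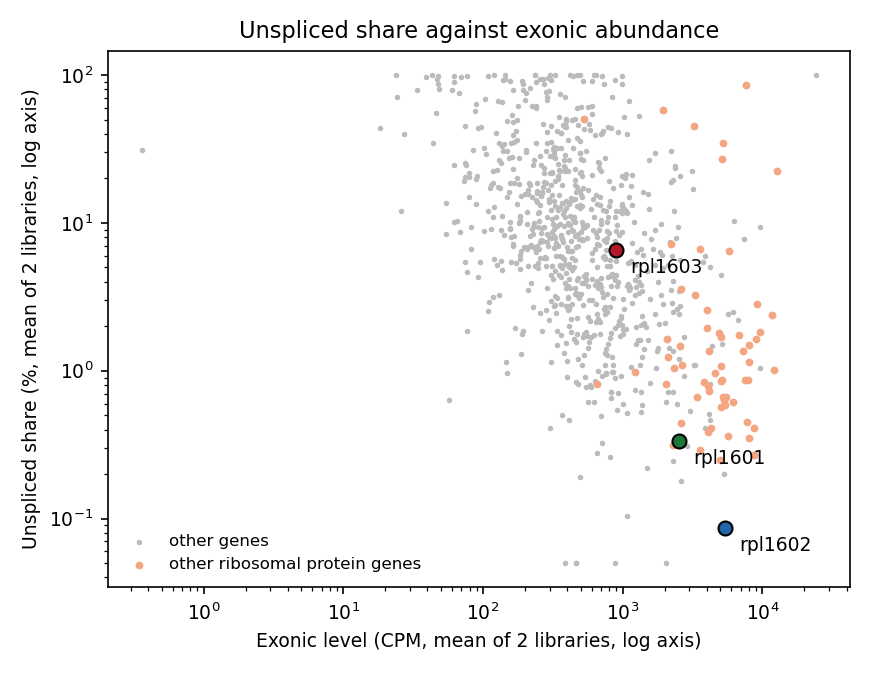
Mean unspliced share in percent against mean exonic CPM for 864 genes, both on log axes, with 5 genes without a premature count drawn at 0.05%. Grey points are other genes, orange points other ribosomal protein genes; rpl1602 lies below all 51 genes within 1.5-fold of its abundance, and rpl1603 lies within the cloud of other genes.

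The genes most like each copy over 4 values, the log2 exonic level and log2 unspliced share in each library, differed between copies. For this measure 0.5 was added to each premature and mature count before the share was taken. The distance is Euclidean, so that 1 unit is a 2-fold difference in a single value. Nearest to rpl1601 were rps3001 (distance 0.280) and tif307, a translation initiation factor eIF3 subunit gene (0.546). Nearest to rpl1602 were cdc48, the AAA ATPase gene of the ubiquitin system (1.94), and rps001 (2.11), both further off because of their higher unspliced shares. Nearest to rpl1603 were tsr2, an rRNA processing protein gene (0.307), and pal1 (0.507). The exonic level of tsr2 was 882 and 883 CPM and its unspliced share 6.73% and 8.33%.

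Compared with other duplicated ribosomal protein genes, the Rpl16 family and the rpl30 pair had the widest spreads. The unspliced share spanned 5.96 log2 units between Rpl16 copies in replicate 1 and 6.54 in replicate 2, against 5.89 and 5.82 in rpl30. The Rpl16 value rests on the 5 and 9 premature counts of rpl1602, and at the upper Wilson limit of rpl1602 it would be 4.73 and 5.61, below rpl30 in both libraries. Families were rpl or rps symbols with at least 3 digits, of which the last 2 number the copy. The other 18 families, each with 2 measured copies, had a median of 0.87 on the mean of both libraries and ranged from 0.20 (rpl43) to 5.85 (rpl30). A family of 3 copies has more room for a wide span than a pair, and between rpl1601 and rpl1602 alone the difference was 2.22 and 1.55 log2 units. In rpl30 the high copy rpl3002 was at 50.2% ± 3.13 and rpl3001 at 0.867% ± 0.0263. In the narrowest family, rpl4301 was at 0.865% ± 0.167 and rpl4302 at 0.792% ± 0.00429. The copy with the highest unspliced share was also the one with the lowest exonic level in both libraries for rpl16 and for 9 of the other 18 families. It was so in 13 of them in replicate 1 and 10 in replicate 2. In a pair without any relation between the values, a single library would show this as often as not. A relation was not tested. The pair rpl35A01 and rpl35A02 falls outside this symbol rule. It spanned 2.74 and 2.09 log2 units, and with it the median was 0.89 over 19 other families, 10 of which had that pattern in both libraries.

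**Figure D5:**
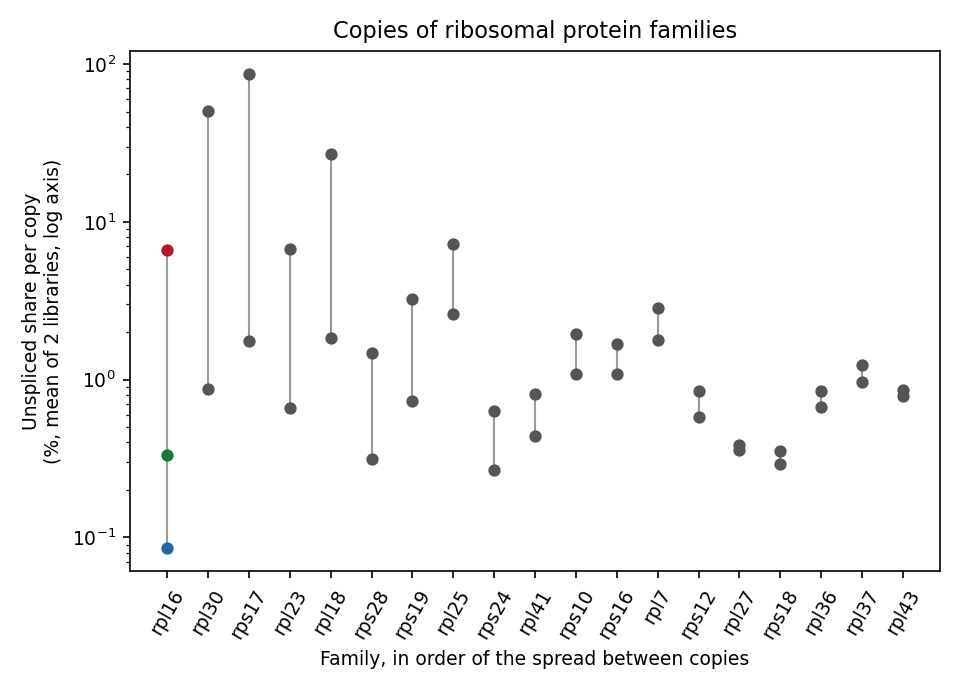
Mean unspliced share of each copy in percent, on a log axis, for 19 ribosomal protein families with at least 2 measured copies, in order of the spread between copies. In rpl16 the red point is rpl1603, the green point rpl1601 and the blue point rpl1602, from 6.59% down to 0.0860%.

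The start of the rpl1603 intron could be set against a single other measured gene. Of the 3 genes with GTATTA, arp5, which encodes an actin-related protein, was measured at 8.15% unspliced in replicate 1 and 2.02% in replicate 2, from 135 and 198 counts. The 58 measured genes with the start of rpl1602, GTAAGA, had a median of 7.89% and ran from rpl1602 itself up to 89.3%. The 202 with the start of rpl1601, GTATGT, had a median of 5.21%. Both rpl1601 and rpl1602 lay far below the medians of the genes that share their first 6 intron bases. So did the median of the 65 ribosomal protein genes, at 1.02%. Only 2 of the 58 genes and 20 of the 202 were ribosomal protein genes, rpl1602 and rpl1601 included. The part of the first 6 bases was not tested.

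Promoters were searched for the HomolD box, a core promoter element of fission yeast ribosomal protein genes, in the window from 250 bases before to 50 after the annotated start. The letters CAGTCACA, on either strand, were present in 43 of the 65 ribosomal protein genes counted in these libraries (66.2%). They were present in 2.68% of 5112 protein-coding genes. Of the 3 copies only rpl1602 held them, with the first base 49 nt before the start, shown in capitals in this stretch of chrI:4097261-4097300 on the plus strand.
rpl1602: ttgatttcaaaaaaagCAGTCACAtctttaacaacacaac

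The letters were not in this window of rpl1601 or rpl1603. The HomolE box, another element of these promoters, was searched on either strand in the same window and was in none of the 3, in 16 of the 65 ribosomal protein genes (24.6%) and in 1.25% of all protein-coding genes. Among ribosomal protein genes, the 43 with the HomolD letters had a median of 5082 exonic CPM and the 22 without them 4040, and both sets spanned over 10-fold. Of 8 listed regulators of ribosomal protein genes, 2 had a row in the files. The gene rrn7, whose product binds the HomolD box, was at 17.3% unspliced in replicate 1 and 27.4% in replicate 2, from 98 and 157 counts. The other, abo1, had 18 and 26 counts, under the minimum.

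Between the libraries, no copy passed the test for a difference in unspliced share. With a two-sided Fisher exact test of mature and premature counts in each gene, adjusted by Benjamini-Hochberg over 864 genes, 0 of the 3 copies passed at 0.05, against 1.62% of all genes. At an unadjusted p under 0.05 the count was also 0, against 89 of the 864 genes. The share of rpl1603 was 1.78 percentage points higher in replicate 2, at an adjusted p of 0.673 by the exact test. The shares of rpl1601 and rpl1602 were lower there, by differences of -0.19 and -0.01 percentage points, at adjusted p of 0.678 and 1 by the exact test. Among all 65 ribosomal protein genes, 58 were lower and 7 higher in replicate 2, and 9 passed.

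Exonic levels of the copies shifted between the libraries by small and unequal amounts. Scaled to the library totals, the log2 ratio of replicate 2 over replicate 1 was 0.15 for rpl1602, 0.05 for rpl1601 and -0.16 for rpl1603, against a median of -0.13 over 1093 genes and 0.16 over the 65 ribosomal protein genes. All 3 passed a two-sided exact binomial test, adjusted by Benjamini-Hochberg over those genes, at adjusted p of 5.79e-44, 0.00225 and 1.07e-09, but so did 72.7% of all genes. Of all genes, 8.78% passed as higher, as rpl1601 and rpl1602 did, and 64.0% as lower, as rpl1603 did. Among the 65 ribosomal protein genes the balance was the other way, with 55 passing as higher and 4 as lower. With DESeq2 size factors, which move the median of all genes to 0.00, the ratios were 0.28, 0.18 and -0.03, and 2 of the 3 passed, against 36.9% of all genes. Under this scaling rpl1603 did not pass, at an adjusted p of 0.351 by the exact test. With chi-square tests divided by an overdispersion factor estimated over all genes, 0 of the 3 passed, against 1.65% of all genes. The adjusted p of these scaled chi-square tests was 0.864 for rpl1602 and 0.986 for both rpl1601 and rpl1603.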

How the data were processed

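For each library the authors deposited raw exonic, mature and premature counts of every gene, with no normalization. Trimmomatic 0.35, HISAT2 2.1.0 and HTSeq appear, without roles, in the submitters' processing notes. The sources used here do not give class definitions, build, annotation, strand setting or use of molecular identifiers. Replicates 1 and 2 held 634306 and 1194460 mature and 53090 and 82204 premature counts. The members, gene lists and tests were chosen with earlier results of these data known.

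Unspliced shares need at least 50 mature and premature counts in each library, which kept 864 genes. Fisher and binomial tests compare 2 libraries with counting noise, not conditions. They were tried on simulated counts with counting noise only, so that trial does not cover the overdispersion of the real counts. edgeR 4.0.16 and DESeq2 1.42.0 (R 4.3.3) supplied scaling factors only. Calculations used Python 3.11.15, scipy 1.17.1, pandas 2.3.3, numpy 2.4.6 and Biopython 1.88. The overdispersion factor, a mean chi-square across genes, was 4.97 for unspliced and 40.3 for exonic counts. Sequences, introns and symbols came from RefSeq, assembly ASM294v3, and 3 of 3 copies matched. Ribosomal protein genes were those among the genes counted with symbols starting rpl, rps or rpp and a digit. Families were rpl or rps symbols with at least 3 digits, the last 2 numbering the copy. The genes named are the 3 copies, the 2 nearest to each, their neighbours in rank among ribosomal protein genes, and the widest and narrowest families and those of 3 copies. The families rpl30 and rpl35A and the genes rpl4102, rpl1202 and arp5 were named after their values were seen. Alternatives were scaling, count minimum, pseudocount, pooling and leaving out a replicate.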

Additional observations from a re-analysis of the deposited data

How the results depend on the processing

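The order of the copies in unspliced share and exonic level was the same under each alternative tried. Leaving out a replicate gave 0.236% to 0.429% for rpl1601, 0.0803% to 0.0917% for rpl1602 and 5.70% to 7.48% for rpl1603. Per kilobase of annotated exon, the exonic CPM were 3668 for rpl1601, 7212 for rpl1602 and 338 for rpl1603, the last lowered by its long 3′ untranslated region. Ranks in unspliced share, as a percentage of the genes measured from the lowest, moved to 4.16 for rpl1601 and 61.4 for rpl1603 at a minimum of 200 counts. With a replicate left out they ran from 2.08 to 4.40 for rpl1601, 1.04 to 2.31 for rpl1602 and 41.2 to 50.6 for rpl1603. The number of genes whose unspliced share differed between libraries fell from 14 to 3 with overdispersion scaling, and was 13 or 14 at other minimums. For exonic counts, 795 genes passed with library totals, 403 with DESeq2 size factors, 410 with TMM and 18 with overdispersion scaling. Counting rpl35A as a family, an alternative chosen after seeing the data, left the spread of the Rpl16 family as it was. No paired analysis was possible because there is only 1 group. Depth limits rpl1601 and rpl1602 most, whose values rest on 5 to 14 premature counts per library.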

Other observations

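Of the 65 ribosomal protein genes, rpl1603 had the 3rd lowest log2 ratio of exonic level in replicate 2 over replicate 1 (-0.16), rpl1601 the 14th lowest (0.05) and rpl1602 the 31st (0.15).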
